A study of Homo sapiens with 6 samples.

Results

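Interferon-stimulated genes encode the antiviral and regulatory proteins that cells make after interferon signalling, and 46 of them were examined in cultured human podocytes. The 46 genes were chosen by name from the known interferon response, with an earlier comparison of levamisole and vehicle in these same cultures in view. All 46 had a row in the expression table of 20745 genes, because genes without a row were left out of the list. Podocytes are the epithelial cells that wrap the capillaries of the kidney glomerulus, and the study asked what levamisole, an anthelmintic drug used as a steroid-sparing agent in nephrotic syndrome, does to their RNA. RNA was sequenced from 3 vehicle cultures and 3 cultures given levamisole at 1 µM for 24 h. Per the study's methods, the 3 replicates of each group came from different cell passages. Whether the passages were matched between the groups is not stated there. All 6 cultures were of AB 8/13, a single conditionally immortalized line that was grown at 33 °C and differentiated at 37 °C for 7 to 10 days. The sample labels place both groups in medium without serum for the 24 h, whereas the study's methods put the vehicle cultures in complete medium, and the titles of the levamisole cultures also carry the word control.

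The table gives 1 level per gene, the base mean, which is the authors' mean of normalised read counts over the libraries of their fit. It has no value for a single culture, so the levels below carry no SD and no n, the depth of each culture is unknown, and which libraries entered the mean is not stated. The remaining columns hold the authors' own comparison of the groups and were not used. Whether any of the 46 genes was higher or lower with levamisole was therefore not analysed here, and every value below describes vehicle and levamisole cultures together. In RNA from whole cultures, a gene active in fewer cells and a gene with less RNA per cell cannot be told apart.

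Type I interferons bind the IFNAR1 and IFNAR2 receptor, whose kinases JAK1 and TYK2 phosphorylate STAT proteins. STAT2 and IRF9 are parts of ISGF3, the complex that binds the interferon-stimulated response element (ISRE) in promoters, while the response to interferon gamma runs through the gamma-activated site (GAS). Many products of the response then act on viral RNA, on viral entry or on protein synthesis, and others raise or damp the response itself.

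Short stretches of promoter show what these genes share in sequence. The ISRE core was searched as GAAANNGAAA and the GAS core as TTCNNNGAA, on both strands, in RefSeq windows (GRCh38.p14) from 250 bases before to 50 bases after each transcript start. The windows covered 36 of the 46 genes, with DDX58 matched through its newer name RIGI. The other 10 were TRIM22, IFITM2, OAS2, IFIT2, MX2, OASL, IRF7, UBA7, DHX58 and USP18. The following 8 stretches are those of the genes with the highest base means whose core lay before the start and outside annotated exons. Each is written 5′ to 3′ on the strand of the gene, with the cores in capitals, reading GAAANNGAAA or, where the core is on the opposite strand, TTTCNNTTTC.
IFITM3: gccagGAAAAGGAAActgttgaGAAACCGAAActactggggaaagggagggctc
IFIT1: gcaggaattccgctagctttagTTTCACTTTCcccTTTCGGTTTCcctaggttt
LGALS3BP: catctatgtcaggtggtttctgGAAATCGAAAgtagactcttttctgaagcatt
MX1: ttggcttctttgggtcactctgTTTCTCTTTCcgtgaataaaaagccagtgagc
IFI6: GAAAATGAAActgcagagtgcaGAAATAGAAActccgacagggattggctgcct
SAMD9: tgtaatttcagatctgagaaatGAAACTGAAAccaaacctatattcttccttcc
ISG15: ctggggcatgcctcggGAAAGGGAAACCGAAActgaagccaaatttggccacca
IFI27: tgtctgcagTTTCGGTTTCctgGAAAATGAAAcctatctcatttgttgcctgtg

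These stretches lay at chr11:320864-320917 on the minus strand, chr10:89392485-89392538 on the plus strand, chr17:78979950-78980003 on the minus strand, chr21:41431832-41431885 on the plus strand, chr1:27672254-27672307 on the minus strand, chr7:93118084-93118137 on the minus strand, chr1:1013368-1013421 on the plus strand and chr14:94110619-94110672 on the plus strand. IFITM3, IFIT1, IFI6, ISG15 and IFI27 each showed 2 cores within the printed stretch, and LGALS3BP, MX1 and SAMD9 showed 1. In ISG15 the cores abutted, the last GAAA of one being the first GAAA of the next, and in IFI27 they lay on opposite strands.

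Of the 36 genes with a window, 25 (69.4%) held an ISRE core, against 4.38% of the 27305 genes in the promoter table and 4.16% of the 12636 of those genes that also had a row in the expression table. With only the bases before the start counted, 22 of 36 (61.1%) held a core, against 3.71% of genes. At least 2 cores in one window were found for 15 of the 36 (41.7%) and for 0.311% of all genes. Cores that abut as in ISG15 were found for 5 of the 36 (13.9%), namely ISG15, HERC5, TRIM21, IFIH1 and BST2, and for 0.187% of all genes. The core was thus many times more frequent in these windows than in promoters at large, and so was its repetition. The 46 genes were chosen as known interferon targets, so these shares describe the list and are no test of it, and a match is not evidence that a factor bound there in podocytes.

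The different ISRE sites in these windows numbered 46, of which 40 (87.0%) lay wholly within the 200 bases before a start, compared with 68.0% of the 1261 sites in all promoters. Read in the GAAANNGAAA direction, the base after the core was C at 33 of the 46 sites (71.7%) and at 20.7% of the 1258 sites of all promoters that had a next base in the window. In the 22 genes with a core wholly before the start, the core nearest to it began between 12 and 196 bases upstream, with a median of 63.5. EIF2AK2 and DTX3L held only a core that spanned the start, and TRIM21 held only cores after it. PARP9 and DTX3L, which are transcribed away from each other, had the same site in their windows, at chr3:122564332-122564341.

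**Figure D1:**
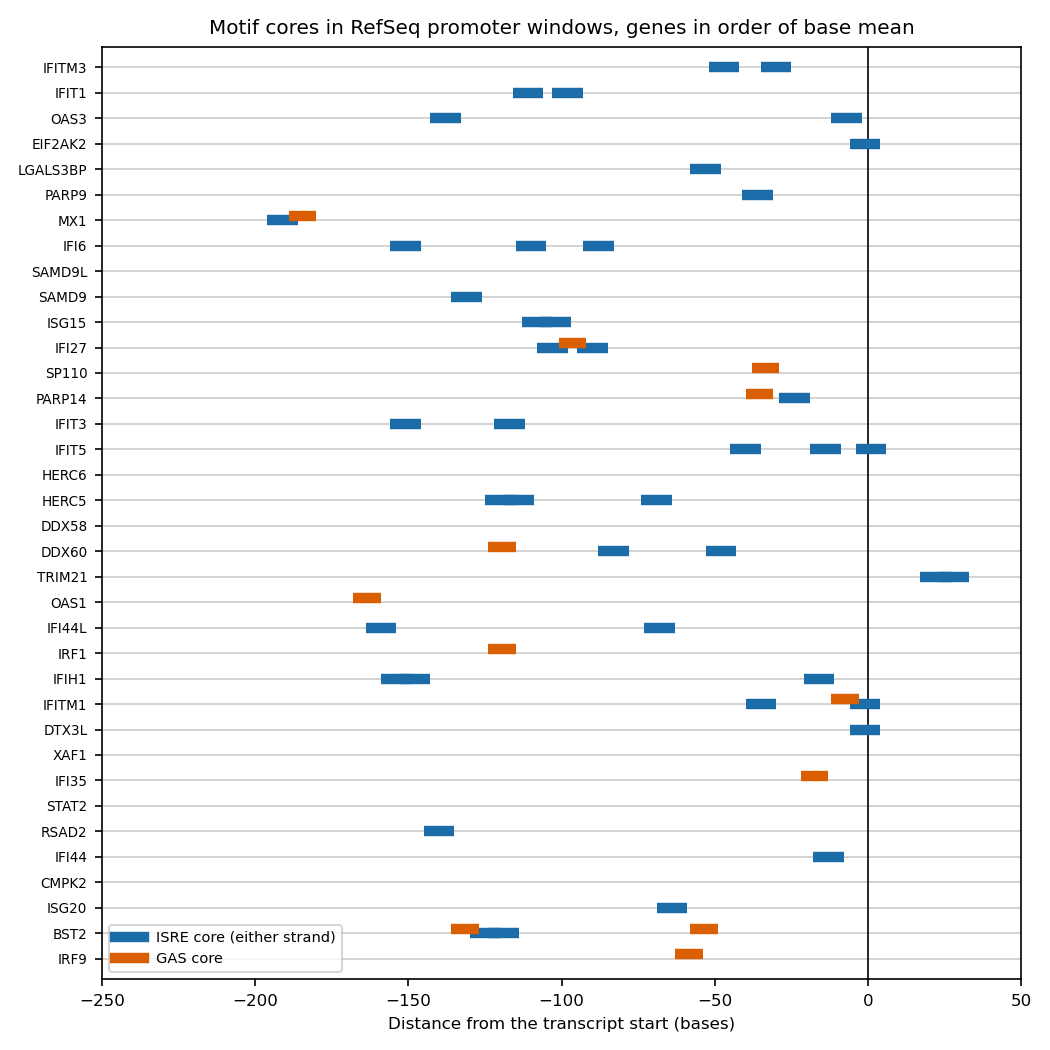
Position of ISRE cores (blue, either strand) and GAS cores (orange) in the promoter windows of the 36 genes with an entry, in order of base mean from top to bottom; the x axis is the distance in bases from the transcript start, and for a gene with several starts the start with most matches is drawn. Of the 46 different ISRE sites in all windows, 40 lay wholly before a start, and the rows of SAMD9L, HERC6, DDX58, XAF1, STAT2 and CMPK2 hold no match.

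By role, every windowed IFIT gene (3 of 3), membrane restriction factor (3 of 3) and PARP or DTX3L gene (3 of 3) held an ISRE core. None of the 3 windowed transcription factors, IRF1, IRF9 and STAT2, held one in this window. A GAS core was present for 11 of the 36 genes (30.6%), against 9.38% of all genes, and 6 genes held both kinds. Counted from the transcript start, the GAS core of IRF1 began at position -124 and that of IRF9 at position -63. Of the 12 different GAS sites, 4 overlapped an ISRE site, and 8 genes had a GAS core apart from any ISRE site. SAMD9L, HERC6, DDX58, XAF1, STAT2 and CMPK2 had neither core. The median base mean was 189.5 for the 25 genes with an ISRE core (3.11 to 2502) and 92.6 for the 11 without one (2.63 to 343), so the range of the genes without a core lay almost wholly within that of the others.

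As a list, the 46 genes had a median base mean of 120.2, where the median of all 20745 genes was 21.8. Their median lay at the 73.6th percentile of the table. The levels ran from 2.33 for USP18 to 2502 for IFITM3, a 1072-fold range. A base mean of 5 was reached by 43 of the 46, against 64.3% of all genes, and the 3 below it were BST2, IRF9 and USP18. Above the table's median were 40 genes, above its upper quartile (131) were 23, and above its 90th percentile (401) were 7. The list summed to a base mean of 14142, or 0.223% of the sum over all genes, and IFITM3, TRIM22 and IFITM2 together made up 40.1% of the list's sum.

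**Figure D2:**
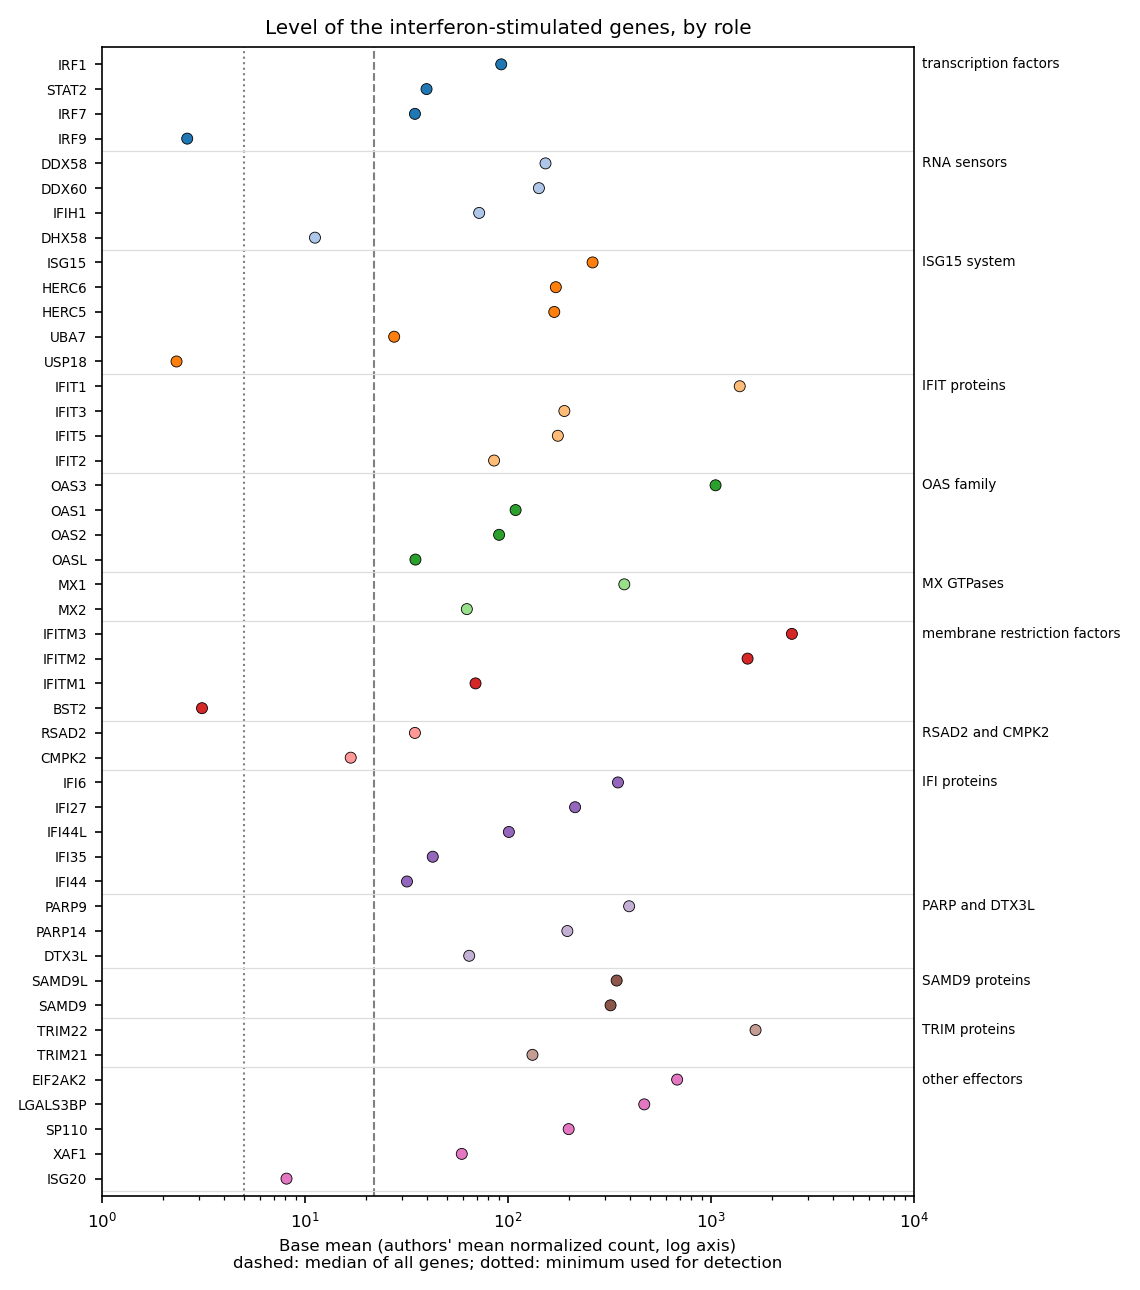
Base mean (log axis) of each of the 46 genes, grouped by role as named at the right; each point is the authors' mean over cultures, with no error available, the dashed line is the median of all genes (21.8) and the dotted line a base mean of 5. The membrane restriction factors spread from 3.11 for BST2 to 2502 for IFITM3, and only BST2, IRF9 and USP18 lie left of the dotted line.

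Levels of different genes are compared on 2 scales, because the study's methods describe a CEL-seq protocol, in which reads come from the 3′ end of a transcript and need not grow with its length. The base mean is unscaled, and the base mean per kilobase divides it by transcript length, which ran from 611 to 9975 bases here. Of the 1035 pairs of genes, 913 (88.2%) had the same order on both scales, and 8 of the 10 highest genes were the same. An order is given below only where both scales gave it. IFI44 and IFI44L show the opposite case, since the base mean was 31.8 for IFI44 and 101 for IFI44L but the level per kilobase was 18.9 and 17.3.

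**Figure D3:**
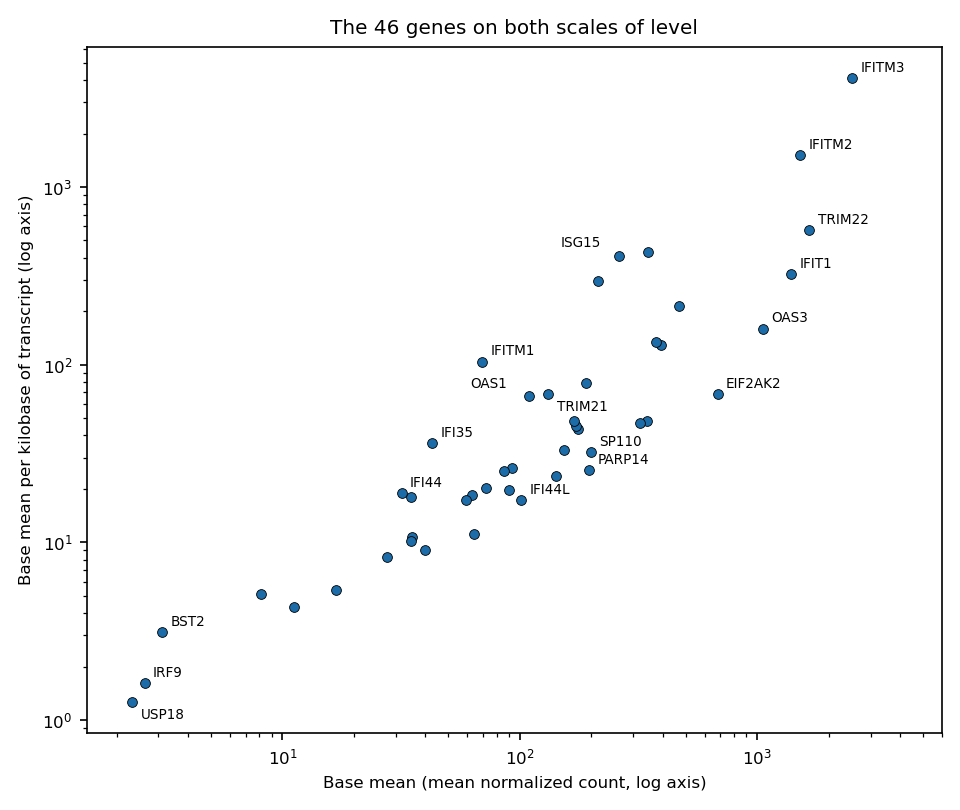
Base mean (x, log axis) against base mean per kilobase of transcript (y, log axis) for the 46 genes, each point a gene, with labels on the 5 highest, the 3 lowest and those whose rank moves most. IFITM3 is highest and USP18 lowest on both axes, while IFITM1 ranks 30 by base mean and 12 per kilobase.

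The transcription factors that carry the signal had a median base mean of 37.3, below the list's 120.2. IRF1, which activates many interferon targets, had a base mean of 92.6 (26.1 per kilobase), STAT2 39.7 (9.01 per kilobase) and IRF7, the factor that amplifies interferon production, 34.8 (18.1 per kilobase). IRF9, the DNA-binding partner of STAT2, had only 2.63 (1.61 per kilobase), the 29.4th percentile of the table. The last 500 exonic bases of IRF9 were covered to 77.4% by an overlapping gene on the same strand, ENSG00000259529, and 74.9% of the 50-base words in that end were shared with it. Reads from that end could be split between both genes or left out, and the part of this in the level of IRF9 was not tested.

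STAT2 thus stood above IRF9 on both scales. Around them, the receptor chains IFNAR1 and IFNAR2 had base means of 136 and 64.8, and the interferon gamma receptor chains IFNGR1 and IFNGR2 had 118 and 263. The kinases JAK1 and TYK2 had 871 and 374, and JAK2 had 27.9. SOCS3 and SOCS1, feedback inhibitors of JAK signalling, had 305 and 17.9. All 6 receptor chains of the pathway list had a row, with a median of 91.4, and 5 reached a base mean of 5. The exception was IL10RB, a shared chain of the interferon lambda receptor, at 1.17, and 87.8% of its last 500 exonic bases were covered by IFNAR2-IL10RB. Of 10 interferon genes in that list, 1 had a row in the table analysed, IFNE, at 0.616. That level was the 11.3th percentile of the table.

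The RNA sensors had a median base mean of 107. DDX58, which encodes the viral RNA sensor RIG-I, stood at 153 (33.2 per kilobase), and IFIH1, which encodes the sensor MDA5, stood at 72.1 (20.1 per kilobase). DDX60, a related helicase, had 142, and DHX58, which encodes the regulator LGP2, had 11.2 (4.33 per kilobase), the lowest of the group on both scales. The adaptor MAVS, through which RIG-I and MDA5 signal, had 259. All 10 listed sensing genes upstream of interferon reached a base mean of 5, with a range from 17.3 for TLR4 to 259 for MAVS. Per kilobase TLR4 was also the lowest of them, at 1.36, but MAVS, at 22.1, was not the highest. TMEM173 had 66.1 per kilobase.

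ISG15 is a ubiquitin-like protein that is attached to other proteins, and its gene stood at 261 (409.9 per kilobase). UBA7, the enzyme that activates ISG15, had 27.5 (8.32 per kilobase). HERC5, the ligase that attaches it, had 169 (48.1 per kilobase), and its relative HERC6 had 172 (45.4 per kilobase). USP18, which removes ISG15 and restrains the interferon receptor, was the lowest of all 46 genes at 2.33 (1.26 per kilobase). The ISG15 system thus ran from a high modifier through HERC5 and its relative HERC6 to a low activating enzyme and a protease below the minimum of 5.

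Among the IFIT proteins, IFIT1 binds viral RNA that lacks the cap marks of the host. IFIT1 led at 1385 (322 per kilobase), followed by IFIT3 at 189.5 (79.3 per kilobase), IFIT5 at 176 (43.7 per kilobase) and IFIT2 at 85.4 (25.2 per kilobase). This order was the same on both scales, and IFIT1 was 16.2-fold above IFIT2 by base mean.

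The OAS enzymes make 2′-5′ linked oligoadenylates that activate RNase L. OAS3 stood at 1053 (159.6 per kilobase), OAS1 at 109 (66.7 per kilobase), OAS2 at 90.4 (19.6 per kilobase) and the related OASL at 35.0 (10.7 per kilobase). OAS3 was thus the main OAS transcript, 30.1-fold above OASL by base mean, and the order again held per kilobase.

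MX1, a dynamin-like GTPase that blocks viral replication, had a base mean of 374 (135 per kilobase). Its neighbour MX2 had 62.7 (18.4 per kilobase). MX1 thus exceeded MX2 by 5.97-fold in base mean, in the same direction per kilobase.

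Among the membrane restriction factors, the IFITM proteins hinder fusion of viruses with cell membranes. IFITM3 was the highest of all 46 genes at 2502 (4096 per kilobase), IFITM2 stood at 1514 (1505 per kilobase) and IFITM1 at 69.2 (104 per kilobase). These genes resemble one another: 25.9% of the 50-base words in the last 500 exonic bases of IFITM3, 21.3% in IFITM2 and 21.7% in IFITM1 occurred in another family member or pseudogene, so their levels are uncertain to the extent that reads were shared or dropped. BST2, or tetherin, which holds budding virions at the cell surface, was far lower at 3.11 (also 3.11 per kilobase).

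RSAD2, which encodes viperin, makes a chain-terminating nucleotide from CTP, and its neighbour CMPK2 encodes a mitochondrial nucleotide kinase. RSAD2 had a base mean of 34.8 (10.2 per kilobase) and CMPK2 16.8 (5.41 per kilobase). Both were low beside the list's median of 120.2.

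The IFI proteins are a mixed set named for their induction. IFI6, a small membrane protein of the endoplasmic reticulum and mitochondria, had 348 (429 per kilobase), although 43.2% of its last 500 exonic bases were covered by LINC02574. IFI27, a small mitochondrial membrane protein, had 214 (295 per kilobase). IFI44L, IFI35 and IFI44 lay lower, at 101, 42.6 and 31.8, and per kilobase at 17.3, 36.1 and 18.9. The small-protein genes IFI6 and IFI27 thus stood above the others on both scales.

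PARP9 and DTX3L form a complex that modifies proteins at sites of DNA damage and in the interferon response, and PARP14 is a mono-ADP-ribosyltransferase. PARP9 had a base mean of 395 (129.7 per kilobase), PARP14 196 (25.5 per kilobase) and DTX3L 64.4 (11.2 per kilobase). PARP9 was thus 6.13-fold above its partner DTX3L by base mean, although their starts face away from each other within a shared promoter region.

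SAMD9L and SAMD9, related cytoplasmic restriction factors that act on translation, had nearly equal base means of 343 and 320.0, and 48.0 and 47.0 per kilobase. Of the TRIM proteins, TRIM22, a ubiquitin ligase with antiviral activity, had a base mean of 1657 (574 per kilobase), the second highest of the 46 genes by base mean and the third highest per kilobase. TRIM21, the cytosolic antibody receptor, had 132 (68.0 per kilobase). TRIM22 was thus 12.6-fold higher than TRIM21 by base mean.

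The other effectors were led by EIF2AK2, which encodes the kinase PKR that stops translation on sensing double-stranded RNA, at 681 (68.3 per kilobase), and by LGALS3BP, a secreted glycoprotein that binds galectins, at 469 (213 per kilobase). SP110, a nuclear body protein, had 199 (32.1 per kilobase), and XAF1, a pro-apoptotic protein, had 59.2 (17.3 per kilobase). ISG20, an exonuclease that degrades RNA, had 8.11 (5.12 per kilobase). ISG20 was thus among the few members under a base mean of 10, with BST2, IRF9 and USP18.

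Many of the 46 genes sit beside one another in the genome. With a limit of 100 kb between neighbours, 22 of them fell into 9 groups and 24 stood alone. The list was chosen by name and holds several gene families, and the matching share over all genes was not computed. These counts therefore only describe the list. On chromosome 10 (GENCODE 44, GRCh38), IFIT2, IFIT3, IFIT1 and IFIT5 lay in a row from position 89283694 to 89421605. On chromosome 11, IFITM2, IFITM1 and IFITM3 lay between 303655 and 329475, with IFITM1 in the middle and 36.2-fold below IFITM3 by base mean. OAS1, OAS3 and OAS2 lay between 112905856 and 113011723 on chromosome 12, where the middle gene OAS3 was 11.7-fold above OAS2. Genes of one group thus differed by more than 10-fold by base mean in all 3 of these groups. The order within each was the same per kilobase, but the gap in the OAS group was smaller there, at 159.6 for OAS3 and 19.6 for OAS2. Closer levels were found for SAMD9 and SAMD9L on chromosome 7, with a ratio of 1.07 by base mean, and for HERC6 and HERC5 on chromosome 4, with a ratio of 1.02 and the opposite order per kilobase.

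**Figure D4:**
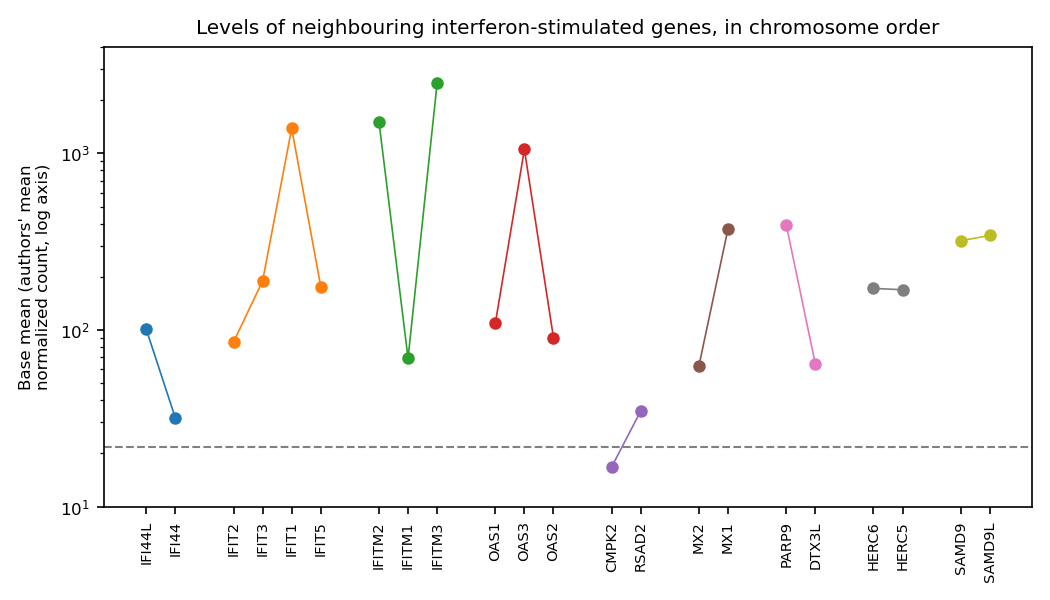
Base mean (log axis) of the 22 genes that lie within 100 kb of another of the 46, in chromosome order within each of 9 groups; lines join neighbours, the dashed line is the median of all genes (21.8), and the points carry no error because no values per culture were available. The IFIT, IFITM and OAS groups span 16.2-fold, 36.2-fold and 11.7-fold, while HERC6 and HERC5 differ by 1.02-fold.

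Other gene lists give the level of the 46 genes a scale. The 24 interferon pathway genes with a row had a median base mean of 117, close to the 120.2 of the 46 genes. The 13 genes of major histocompatibility complex (MHC) class I presentation and the immunoproteasome had a median of 259.6, with B2M, the shared light chain, at 5673. The 13 NF-kB subunits and inhibitors had a median of 183 and a highest value of 405 for NFKBIZ. The lists overlapped widely, and the interferon-stimulated genes IFITM3, TRIM22, IFITM2, IFIT1, OAS3, EIF2AK2 and LGALS3BP stood above every NF-kB gene by base mean. EIF2AK2 did not do so per kilobase, where the highest NF-kB gene, NFKBIB, had 155.

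**Figure D5:**
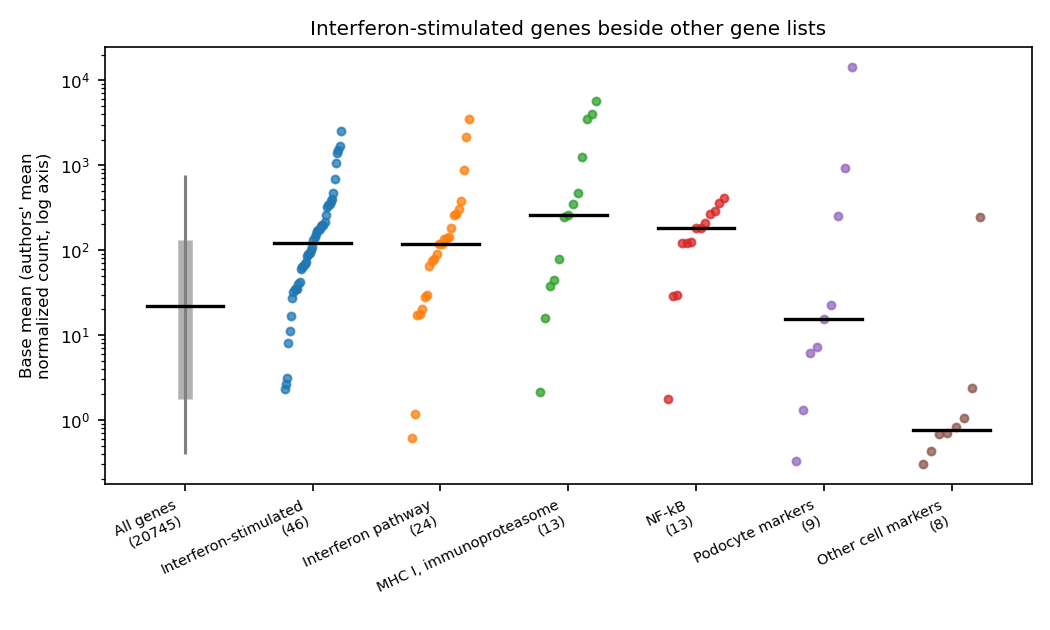
Base mean (log axis) of the 46 interferon-stimulated genes beside 5 other lists, each point a gene with a row in the table and each black line the list's median; for all 20745 genes the grey bar spans the quartiles and the thin line the 5th to 95th percentiles. The median of the 46 genes (120.2) lies above that of all genes (21.8) and near that of the interferon pathway (117).

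The cells were checked against defining markers. Of 12 podocyte markers, 9 had a row, with a median base mean of 15.3. ACTN4, CD2AP and KIRREL1, which encode cytoskeletal and slit diaphragm proteins also made by other cells, had 14320.5, 929 and 253. The more restricted SYNPO, PODXL, TCF21 and WT1 had 22.8, 15.3, 7.20 and 6.21, PTPRO had 0.333, and no row was analysed for NPHS1 or LMX1B, so the label podocyte rested on few defining markers here. Of 9 leukocyte markers 4 had a row, the highest being CD14 at 2.40, and of 5 endothelial markers 3 had a row, the highest at 0.690. The markers analysed for leukocytes and endothelium were low beside the median of 120.2 for the 46 genes. CD14 was close to the lowest of the 46, USP18 at 2.33 and IRF9 at 2.63. CD68 had 1.06, and 82.6% of its 3′ end was covered by ENSG00000264772. Whether leukocytes or endothelium had a part in the levels of the 46 genes was not tested. Of 4 tubule markers only 1 had a row, AQP1, at 243, and its part in these levels was not tested.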

How the data were processed

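Processed values were taken from one deposited table of 20745 genes, made from 3 vehicle and 3 levamisole cultures. Per the study's methods and the submitters' processing notes, the authors prepared libraries with an adapted CEL-seq protocol, trimmed reads with Trim Galore 0.4.5 and cutadapt 1.18, checked them with FastQC 0.11.8, aligned them with STAR 2.7.5a to GRCh38, counted them with HTSeq 0.11.0 and fitted them with DESeq2 1.22.0 in R 3.5.3. The study's methods give these roles, except that the role of FastQC follows its usual use. They also describe an alignment with BWA MEM and a different normalisation. The column used was the base mean, a signal value that the authors computed as the mean normalised count over the libraries of their fit. Depth per culture, the number of libraries in that mean and its spread are not given in the sources used here, so no interval, fold change or test between groups was computed. The other 5 numeric columns hold the authors' fold change, its standard error, test statistic, p-value and adjusted p-value, and were not used.

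The 46 genes and every comparison list were chosen with earlier results of these data known. A few genes of the comparison lists are not reported by name here. All 46 genes are named by role; other genes are named where their level bears on a role. Percentiles were computed over all genes of the table, and a base mean of 5 was the minimum for counting a gene as detected. Gene IDs were matched to GENCODE 44 (20599 of 20745), from which positions, transcript lengths and the overlap of the last 500 exonic bases came. A 3′ end was described as shared where over 10% of its 50-base words occurred in other genes. Motifs were searched in RefSeq promoter windows. Stretches with 22 flanking bases are printed for at most 8 genes. Python 3.11.15, pandas 2.3.3, NumPy 2.4.6 and matplotlib 3.10.9 were used, and the scripts were tested on simulated data.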

Additional observations from a re-analysis of the deposited data

How the results depend on the processing

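The 43 of 46 genes at a base mean of 5 or more became 46, 42 and 33 at minima of 1, 10 and 50, against 82.0%, 57.8% and 39.9% of all genes. The median base mean moved from 120.2 to 142 when only genes at 5 or more were kept (82.6 for all genes), to 132 without the 3 genes whose 3′ end was covered by another gene, and to 109 without the 5 genes that share 3′ words, an alternative chosen after seeing the data. The median percentile moved from 73.6 to 63.2 among genes at 5 or more and to 62.8 among the 14416 genes with a RefSeq protein. Of 1035 pairs, 913 kept their order per kilobase. ISRE cores were found in 25 genes in the whole window, 22 before the start, and 26 with the last base of the core left free (9.86% of all genes), and GAS cores in 11 both in the whole window and before the start. The medians and percentile rest on which genes were counted, by construction of each alternative.

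No paired analysis was possible because the table used here gives 1 pooled mean per gene. Fits without single replicates and a comparison of the groups were not run, on the same ground. Protein identity within the gene families was not analysed here.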
